A study of Mus musculus with 6 samples.

Results

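The stomach wall carries its own nervous system, and 31 genes that mark its neurons, its glia and its pacemaker cells were followed in RNA sequencing of mouse stomach. The genes were chosen by symbol, by a rule that uses no measured value, though with earlier results of these data known, and all 31 were found among the 23550 genes of the deposited table. The libraries came from stomachs of mice given saline (3 libraries) or Riclin, a soluble dietary fibre (3 libraries). Both treatments were gavages labelled 20 mg per kg, and the series' design gives 14 days. The strain, sex and age of the mice and the stretch of stomach taken were not given in the sources used here. An ethanol injury model was also part of the study, and the labels name no ethanol for these libraries. Nothing in the labels says that each library came from a separate animal. The p-values below set group differences against the spread of these 6 libraries within their groups, which may not be the spread between animals. Values for single libraries are given in a constant order, saline replicates 1, 2 and 4, then Riclin replicates 2, 3 and 4. The RNA is from bulk tissue, in which fewer cells of a type and less RNA per cell cannot be told apart.

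Enteric neurons lie in ganglia between and beneath the muscle layers. They release acetylcholine and tachykinins to contract smooth muscle, and nitric oxide and vasoactive intestinal peptide to relax it. Enteric glia surround them, and the interstitial cells of Cajal next to them set the slow electrical rhythm of the muscle through a calcium-activated chloride channel. Several of these genes are also active elsewhere: Kit in mast cells, Ano1 in epithelia, and Scg2, Uchl1, Snap25 and some peptide genes in endocrine cells.

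The FPKM values (fragments scaled to gene length and library total) imply library totals of 30884067 to 40050267 reads, and the 31 members together had 9802 to 14161 reads per library. Gastric gland genes were high in all 6 libraries, the proton pump gene Atp4a at 1273 to 2245 FPKM. Libraries of both groups stood apart in other tissue. Saline replicate 1 was lowest in forestomach squamous genes, whose 8 members summed to 86.4 FPKM there against 283 to 501 in the rest. All 7 tested ones were higher in the Riclin mean (median log2 fold change 0.98), 3 of them at an unadjusted limma p under 0.05 and 0 past the adjusted threshold. Adipocyte genes were lower in the Riclin mean in 4 of 4 tested, 1 of them at an unadjusted limma p under 0.05 and 0 past the adjusted threshold, and their 5 genes summed to 169 to 205 FPKM with saline and 81.5 to 192 with Riclin. Riclin replicate 3 had almost no pancreatic transcripts (14 acinar genes summed to 113 FPKM, against 30190 to 123000 in the rest), and Riclin replicate 4 had almost no gastrin (Gast, the antral hormone, at 2.62 FPKM against 389 to 1037). Smooth muscle genes, which lie in the same layers as the enteric ganglia, summed to 1824 to 2433 FPKM in saline and 1737 to 1975 in Riclin over 15 genes. Of the 14 tested ones 13 were lower in the Riclin mean, none past the adjusted threshold. An unadjusted limma p under 0.05 was found for 2, both lower. In 4 of the 14 all Riclin libraries lay on one side of all saline ones (3 lower, 1 higher). Over all tested genes 5.90% had an unadjusted limma p under 0.05, 11.2% had groups set apart in this way and 61.3% were higher in the Riclin mean.

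Levels of the members, which FPKM puts on a scale per gene length, spanned from about 12 FPKM to almost nothing. The chloride channel gene Ano1 was highest, at a mean of 12.2 FPKM over the 6 libraries, followed by the receptor kinase gene Kit at 11.0, the myelin gene Mbp at 10.1 and the peptide precursor gene Cartpt at 9.43. At the other end were Chat, the acetylcholine-forming enzyme, at 0.0677 FPKM and Erbb4, a neuregulin receptor, at 0.00472. Neuronal, glial and pacemaker markers were thus all detected, but the label holds unevenly. Erbb4 had 0 to 9 reads per library, and the 0 in saline replicate 1 allows a level of up to 0.00317 FPKM (3 reads, counting error only). Elavl3 and Elavl4, RNA-binding proteins that define neurons, had 16 to 48 and 13 to 52 reads.

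**Figure D1:**
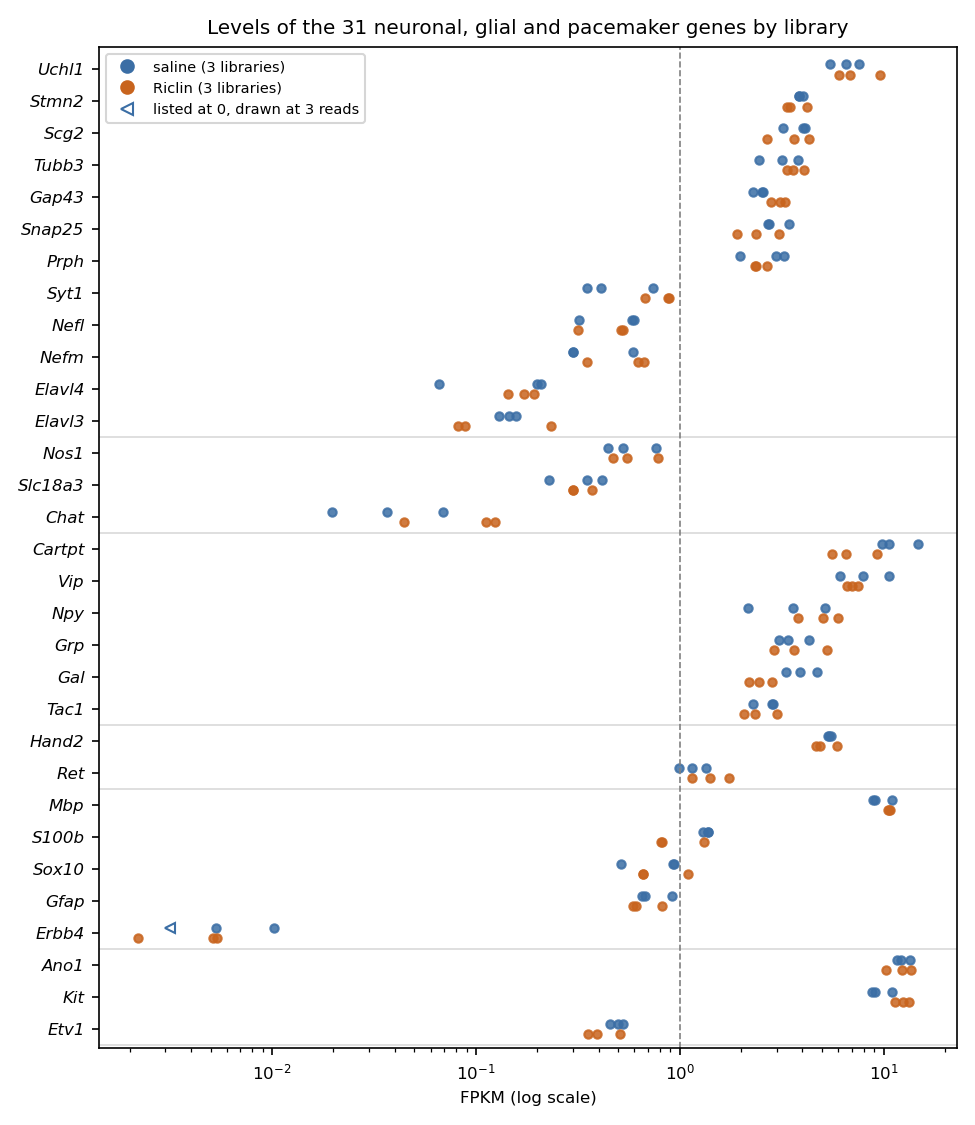
FPKM (log axis) of the 31 members in each saline (blue) and Riclin (orange) library, grouped by role and ordered by mean within a role; the dashed line marks 1 FPKM and the open triangle is the 1 value listed at 0, drawn at the level of 3 reads. Levels run from Ano1, Kit, Mbp and Cartpt near 10 FPKM down to Chat and Erbb4, and the blue and orange points lie in the same range for most members.

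Riclin was compared with saline by limma on log2(FPKM + 1) over all 11738 genes with at least 1 FPKM in at least 3 libraries, a filter that 19 of the 31 members passed. None of the 19 passed a Benjamini-Hochberg adjusted p of 0.05 by limma, as for the whole table, where 0% of genes did, and their adjusted p ran from 0.691 to 0.970. An unadjusted p under 0.05 was found for 3 of the 19 (Gal and Cartpt lower in Riclin, Kit higher), where 5.90% of all tested genes had one. Limma's voom on recovered reads also gave 0 members past the adjusted threshold and 3 under an unadjusted 0.05, where 6.27% of all tested genes were. The groups did not overlap in 4 of the 19 (those 3 and Gap43, higher), against 11.2% of all tested genes. Of the 19, 8 were higher and 11 lower in Riclin, with a median log2 fold change of -0.07 and a range of -0.65 to 0.39. The median over all tested genes was 0.04. With 61.3% of all tested genes higher, that background leaned the other way, but its lean depended on scaling (49.8% higher with median-of-ratios scaling), while the members' split of 8 to 11 was the same with either scaling tried. The members' split itself turned to 10 higher and 9 lower without saline replicate 1 or without Riclin replicate 3, and to 6 and 13 without Riclin replicate 4.

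**Figure D2:**
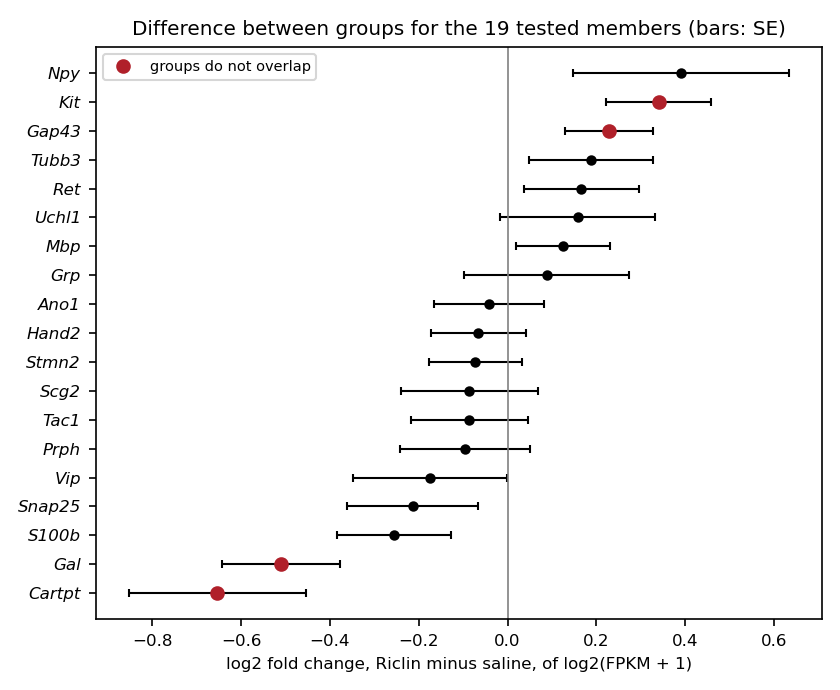
Log2 fold change (Riclin minus saline, on the log2(FPKM + 1) scale) of the 19 tested members, with bars for the standard error from limma; red points mark the 4 members whose groups do not overlap. Gal and Cartpt lie lowest at -0.51 and -0.65, Kit and Gap43 at 0.34 and 0.23, and no member passed the adjusted threshold.

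Neuropeptide genes held the 2 members with the smallest p. Gal encodes galanin, a peptide that damps transmitter release from enteric neurons, and Cartpt the precursor of the CART peptides of enteric neurons and some endocrine cells. Gal measured 4.73, 3.88 and 3.33 FPKM with saline and 2.83, 2.19 and 2.44 with Riclin. Every Riclin library lay below every saline library. The saline mean was 1.60 times the Riclin mean (3.98 ± 0.708 against 2.48 ± 0.323 FPKM, SD, n = 3 each). By limma the log2 fold change was -0.51 (SE 0.133, unadjusted p = 0.00547, adjusted p = 0.691). It rests on 69 to 145 reads per library. Cartpt measured 14.8, 9.87 and 10.6 FPKM in the saline libraries, in the same order, and 5.58, 9.25 and 6.55 in the Riclin ones. Here too the groups did not overlap, although Riclin replicate 3 came within 1 FPKM of saline replicate 2. Means were 11.7 ± 2.64 and 7.13 ± 1.90 FPKM (SD, n = 3 each), a ratio of 1.65. The log2 fold change was -0.65 by limma (SE 0.200, unadjusted p = 0.0120, adjusted p = 0.758). Leaving out any 1 library kept both genes lower and their unadjusted limma p under 0.05, with log2 fold changes of -0.61 to -0.40 for Gal and -0.83 to -0.49 for Cartpt. Over the alternatives the limma adjusted p ran from 0.487 to 0.960 for Gal and from 0.400 to 0.965 for Cartpt.

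Other cells of the sample that can hold these peptides were measured beside them. Gast, from antral endocrine cells, was also lower in every Riclin library, at 1037, 676 and 943 FPKM with saline and 420, 389 and 2.62 with Riclin. The log2 fold change of Gast was -3.37 by limma (SE 1.65, unadjusted p = 0.0765, adjusted p = 0.823). Of the 9 tested endocrine genes 5 were higher and 4 lower in the Riclin mean, with 0 past the adjusted threshold. At an unadjusted limma p under 0.05, 2 were higher and 1 lower (3 of 9, against 5.90% of all tested genes). The granin Chga was higher in every Riclin library (259 ± 6.72 and 347 ± 56.9 FPKM, SD, n = 3 each). The prohormone convertase Pcsk2 was lower in every Riclin library (2.80 ± 0.781 and 1.68 ± 0.446 FPKM, SD, n = 3 each). The 12 endocrine genes summed to 1607 to 2243 FPKM in saline and 1307 to 1873 in Riclin. The part of endocrine cells in the Gal and Cartpt values was not tested. Saline replicate 1, lowest in forestomach genes, held the highest Gal, Cartpt and Vip, and the part of that difference was not tested either. Islet hormone genes (5) summed to 1.14 FPKM in Riclin replicate 3, with Ins1 listed at 0. Cartpt there was the highest of the Riclin libraries, and Gal there was the lowest of all libraries. The part of islet cells in the Gal and Cartpt values was not tested.

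Upstream sequences are shown for Gal, Cartpt and Kit, the members with the smallest p, and for Scg2, which shares an element with Cartpt but overlapped between the groups. They are RefSeq promoters on GRCm38.p6, the assembly that mm10 names, and 22 of the 31 members had one. Capitals mark 2 motifs searched on both strands, the cAMP response element TGACGTCA and the GC box GGGCGG. The window for Gal is chr19:3414545-3414794 on the minus strand and that for Kit chr5:75574737-75574915 on the plus strand, both ending before the first exon annotated in GENCODE M21. For Cartpt (chr13:99900777-99900806, minus strand) and the granin gene Scg2 (chr1:79440076-79440105, minus strand) only 30 bases around the element are given, because one annotated transcript of each gene starts upstream of it.
Gal: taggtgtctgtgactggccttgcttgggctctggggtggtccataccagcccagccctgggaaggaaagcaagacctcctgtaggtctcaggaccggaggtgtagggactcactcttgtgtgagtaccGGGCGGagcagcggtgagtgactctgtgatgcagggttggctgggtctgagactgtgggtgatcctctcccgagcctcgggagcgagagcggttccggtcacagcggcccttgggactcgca
Kit: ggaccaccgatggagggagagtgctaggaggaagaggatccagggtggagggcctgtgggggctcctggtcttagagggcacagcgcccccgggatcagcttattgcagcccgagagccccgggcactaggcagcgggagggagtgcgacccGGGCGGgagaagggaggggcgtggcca
Cartpt: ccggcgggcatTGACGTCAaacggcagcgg
Scg2: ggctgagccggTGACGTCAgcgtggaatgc

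The element TGACGTCA was found in the 250 bases before the start site of 2 members, Cartpt (112 to 105 bases before it) and Scg2 (68 to 61 bases before it), and in 1.55% of all 32851 promoters. Cartpt was lower in the Riclin libraries, while Scg2 overlapped between the groups (3.80 ± 0.511 and 3.55 ± 0.818 FPKM, SD, n = 3 each). The GC box was found in 13 of the 28 promoters listed for members, those of Gal, Kit and Cartpt among them, and in 32.7% of all promoters. The TATA box TATAAA was found before Elavl3, Etv1, Prph and Vip, and in 12.4% of all promoters. None of these matches says that a factor binds there.

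The remaining peptide genes overlapped between the groups. Vip, whose peptide relaxes smooth muscle, measured 10.7, 6.15 and 7.95 FPKM with saline and 6.62, 7.52 and 6.98 with Riclin, so that a single saline library held the highest value (log2 fold change -0.18, SE 0.173, limma adjusted p = 0.905). Npy, the precursor of neuropeptide Y of enteric and sympathetic nerves, ranged from 2.17 FPKM in saline replicate 4 to 5.95 in Riclin replicate 4. Its log2 fold change of 0.39 (SE 0.244, limma adjusted p = 0.846) was the highest of the members. That value was 0.14 without saline replicate 4 and 0.62 without saline replicate 1. Tac1, the substance P precursor, stayed between 2.07 and 2.99 FPKM. Grp, whose peptide prompts gastrin release, lay between 2.91 and 5.27 FPKM, with the lowest value in Riclin replicate 3 and the highest in Riclin replicate 4.

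**Figure D3:**
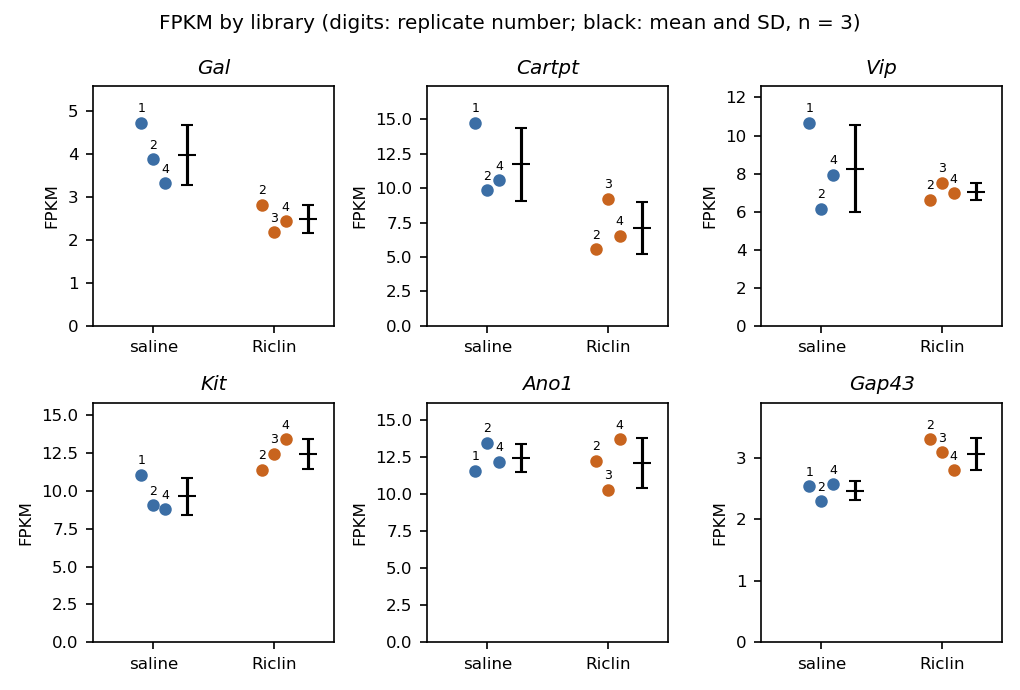
FPKM in each library for 3 peptide genes (Gal, Cartpt, Vip), 2 pacemaker genes (Kit, Ano1) and Gap43; points are libraries with their replicate numbers, black marks the mean and SD of 3. For Gal and Cartpt all Riclin points lie below the saline points, for Kit and Gap43 above, and for Vip and Ano1 the groups overlap.

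The pan-neuronal genes gave no common direction. Of the 12, 7 were tested, with 3 higher and 4 lower in Riclin. Gap43, a growth cone protein of regenerating and mature axons, had the smallest p of them. It measured 2.53, 2.29 and 2.57 FPKM with saline and 3.30, 3.09 and 2.79 with Riclin. All Riclin libraries lay above all saline ones. Its Riclin mean was 1.24 times the saline mean, and its log2 fold change was 0.23 by limma (SE 0.0991, unadjusted p = 0.0521, adjusted p = 0.820).

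Cytoskeletal and synaptic proteins overlapped between groups. Tubb3, the neuronal tubulin, measured 3.13 ± 0.682 FPKM with saline and 3.67 ± 0.356 with Riclin (SD, n = 3 each). The microtubule regulator Stmn2 varied little, from 3.34 to 4.22 FPKM over the 6 libraries. Prph, a filament protein of peripheral neurons, ranged from 1.98 to 3.25 FPKM, and Scg2, a granin of dense-core vesicles, from 2.69 to 4.33. Snap25, part of the vesicle fusion machinery, was lowest in Riclin replicate 3 at 1.90 FPKM and highest in saline replicate 4 at 3.45 (limma adjusted p = 0.861). Uchl1, a ubiquitin hydrolase abundant in neurons, measured 6.55, 7.60 and 5.48 FPKM with saline and 6.86, 6.03 and 9.56 with Riclin. Only Riclin replicate 4 lay above all saline libraries in Uchl1, and the log2 fold change of 0.16 (SE 0.174, limma adjusted p = 0.913) turned to -0.01 without it. GENCODE M21 lists antisense exons over Uchl1, Hand2 and Nos1, and over Nefl and Nefm from each other. The use of strand in the counting was not given in the sources used here, so their reads cannot be told from those of these partners. Over Elavl3 it lists exons of Gm49318 on the same strand, which strand could not separate.

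The 5 pan-neuronal genes under the filter were the vesicle calcium sensor Syt1, the neurofilaments Nefl and Nefm, and Elavl3 and Elavl4. Syt1 stood at 0.737, 0.413 and 0.351 FPKM with saline and at 0.873, 0.885 and 0.676 with Riclin, or 156, 81 and 59 against 177, 193 and 140 reads. Only saline replicate 1 reached into the Riclin range. Without a filter on low values, Syt1 had a log2 fold change of 0.28 (SE 0.116, limma adjusted p = 0.891), with 1 added before the log. The ratio of its Riclin to its saline mean FPKM was 1.62. Nefl ranged from 0.318 to 0.594 FPKM and Nefm from 0.301 to 0.665, and in both the groups overlapped. Elavl4 was lowest in saline replicate 4 with 13 reads, against 35 to 52 in the other libraries, and Elavl3 was highest in Riclin replicate 3 with 48 reads, against 16 to 27.

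The transmitter genes were all too low for the filter. Nos1, the neuronal nitric oxide synthase of inhibitory motor neurons, lay at 0.528, 0.444 and 0.768 FPKM with saline and at 0.781, 0.554 and 0.469 with Riclin, on 155 to 282 reads. Neither group was set apart. Slc18a3, which loads acetylcholine into vesicles and lies inside the Chat gene, ranged from 0.228 to 0.414 FPKM on 17 to 36 reads. Chat had 4, 2 and 6 reads in the saline libraries and 13, 5 and 12 in the Riclin ones, and with numbers this small no difference was detectable at this depth (log2 fold change without a filter 0.07, SE 0.0347, limma adjusted p = 0.891). Adding 1 before the log keeps that value near 0 at such levels, and the ratio of Riclin to saline mean FPKM was 2.24.

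Ret and Hand2 act in the formation of the enteric nervous system. Ret, the receptor for glial cell line-derived neurotrophic factor, measured 1.35, 1.15 and 0.997 FPKM with saline and 1.75, 1.15 and 1.41 with Riclin. The groups overlapped (log2 fold change 0.17, SE 0.129, limma adjusted p = 0.882). Hand2, a transcription factor of enteric neuron differentiation, was nearly equal in the saline libraries at 5.42 ± 0.0880 FPKM and wider in Riclin at 5.16 ± 0.671 (SD, n = 3 each).

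Glial genes showed no member set apart. S100b, a calcium-binding protein of glia, measured 1.38, 1.30 and 1.38 FPKM with saline and 0.808, 1.32 and 0.823 with Riclin. Riclin replicates 2 and 4 lay below all saline libraries and Riclin replicate 3 among them (log2 fold change -0.26, SE 0.128, limma adjusted p = 0.823). These values rest on 50 to 89 reads. Mbp, the myelin basic protein gene, which also has transcripts outside myelin, measured 11.0, 8.90 and 9.09 FPKM in saline and 10.7, 10.5 and 10.6 in Riclin. Relative to its mean it had the smallest SD of the 31 members in the Riclin group (10.6 ± 0.125 FPKM, SD, n = 3). The neural crest transcription factor Sox10 ranged from 0.513 to 1.10 FPKM and the glial filament gene Gfap from 0.592 to 0.917, both under the filter and overlapping.

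Of the 3 pacemaker genes 2 were tested, and neither passed the adjusted threshold. Kit, the receptor on which interstitial cells of Cajal depend (chromosome 5, 75574916 to 75656722, plus strand, GENCODE M21 on GRCm38), measured 11.0, 9.04 and 8.78 FPKM with saline and 11.4, 12.4 and 13.4 with Riclin. All Riclin libraries lay above all saline ones, saline replicate 1 coming nearest to them. The Riclin mean was 1.29 times the saline mean (12.4 ± 1.004 against 9.62 ± 1.23 FPKM, SD, n = 3 each). By limma its log2 fold change was 0.34 (SE 0.117, unadjusted p = 0.0210, adjusted p = 0.791), on 1405 to 2640 reads per library. The unadjusted p was 0.0631, 0.0743 and 0.0762 without saline replicate 2, saline replicate 4 or Riclin replicate 4. Ano1, the chloride channel behind the slow waves, measured 11.6, 13.5 and 12.2 FPKM in saline and 12.3, 10.3 and 13.7 in Riclin, with full overlap (log2 fold change -0.04, SE 0.124, limma adjusted p = 0.970). Etv1, a transcription factor of these cells, ranged from 0.355 to 0.527 FPKM under the filter.

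Mast cells also carry Kit, and their list was measured beside it. Of 10 mast cell genes 9 are in the table, and they summed to 51.1 to 57.0 FPKM in saline and 28.8 to 74.1 in Riclin. In Riclin replicate 3, where Kit was at 12.4 FPKM, the listed proteases went both ways: Cpa3 (2.88 FPKM) and Mcpt1 (3.67) had their lowest values of the 6 libraries there, and Mcpt4 (6.13) its highest, and none of the 9 was at 0 in any library. Of 6 tested mast cell genes 2 were higher and 4 lower, none past the adjusted threshold or under an unadjusted limma p of 0.05. Their part in the Kit values was not tested.

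Further genes of the same cell types, from lists that hold no member, were counted in the same fit. Of 44 other neuronal genes 15 were tested, with 6 higher and 9 lower in Riclin, 0 past the adjusted threshold by limma and 3 under an unadjusted p of 0.05 (3 of 15, against 5.90% of all tested genes). Those were the enkephalin precursor Penk (10.7 ± 0.858 FPKM in saline and 8.39 ± 1.01 in Riclin), the vesicle protein Syp (7.04 ± 1.01 and 9.06 ± 1.08) and the monoamine transporter Slc18a2 (2.35 ± 0.736 and 3.34 ± 0.247; SD, n = 3 each). Syp and Slc18a2 are shared with endocrine cells. Of 18 other glial genes 10 were tested, 5 higher and 5 lower, with 0 under an unadjusted limma p of 0.05 or past the adjusted threshold, and Erbb3, the partner receptor of Erbb4, overlapped at 23.9 ± 5.12 and 21.0 ± 1.14 FPKM (SD, n = 3 each).

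The list for interstitial cells of Cajal and the PDGFRA-positive cells beside them held 11 genes, 8 of them tested. By limma 2 were higher and 2 lower at an unadjusted p under 0.05 (4 of 8, against 5.90% of all tested genes), and 0 passed the adjusted threshold. Gja1, a gap junction protein of many cell types, measured 7.30, 11.7 and 9.78 FPKM with saline and 15.0, 12.8 and 13.4 with Riclin. The purine receptor gene P2ry1 was also higher in every Riclin library (0.822 ± 0.143 and 1.38 ± 0.240 FPKM, SD, n = 3 each). The guanylate cyclase subunit Gucy1b1, part of the nitric oxide receptor, was lower in every Riclin library (5.18 ± 0.858 and 4.06 ± 0.0867 FPKM, SD, n = 3 each). The matrix protein Thbs4 was lower in the Riclin mean, though its groups overlapped (2.03 ± 0.465 and 0.952 ± 0.620 FPKM, SD, n = 3 each). Its log2 fold change of -0.67 was the lowest of this list (SE 0.234, limma unadjusted p = 0.0216, adjusted p = 0.791). Kitl, the ligand of Kit, lay at 7.62 to 9.01 FPKM in saline and 9.12 to 11.2 in Riclin, and it was chosen after its values were seen. The log2 fold change of Kitl was 0.20 by limma (SE 0.116, unadjusted p = 0.123, adjusted p = 0.843).

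The members also varied by library within each group. Saline replicate 4 was lowest in 11 of the 31 members and Riclin replicate 3 in 10, while Riclin replicate 4 was highest in 9 and saline replicate 1 in 8. The median deviation of the 19 tested members from their own mean was 0.06 in Riclin replicate 4 and -0.09 in Riclin replicate 3, on the log2 scale. In Riclin replicate 3 the same median over all tested genes was 0.10, so the members' median lay low there while that of all genes lay high. That library is the one with few pancreatic transcripts, and the part this plays in the members' values was not tested.

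**Figure D4:**
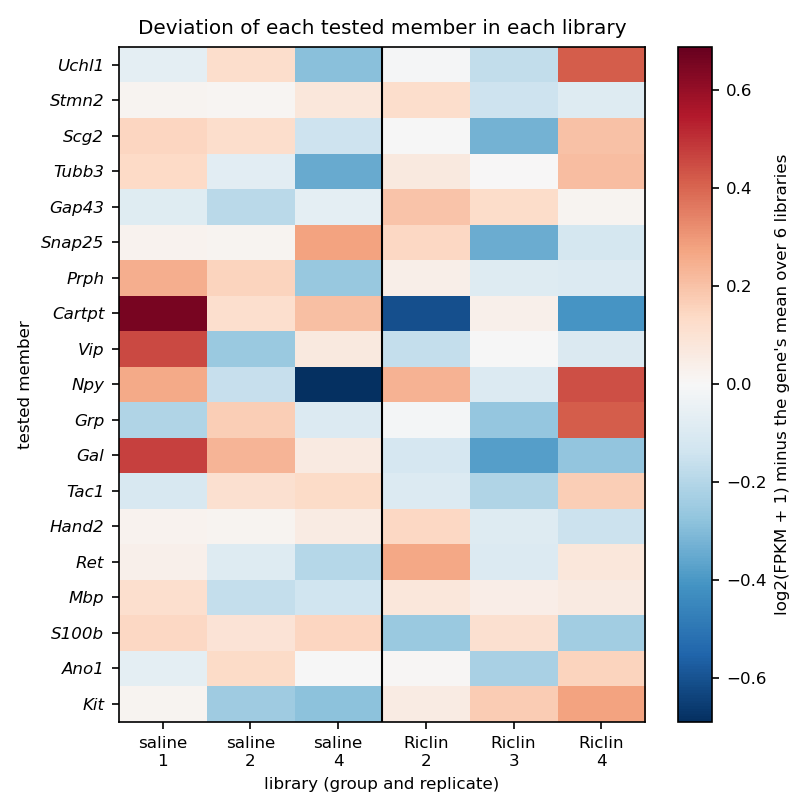
Deviation of each of the 19 tested members from its own mean over the 6 libraries (rows: genes; columns: libraries; colour: difference on the log2(FPKM + 1) scale, red higher, blue lower; the line separates saline from Riclin). Rows for Gal and Cartpt are red or pale in saline and blue or pale in Riclin, while most rows vary within a group, and the Riclin replicate 3 column is mostly blue.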

How the data were processed

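The authors deposited 1 table of FPKM values for 6 mouse stomach libraries. Per the labels' protocols, TRIzol was used to isolate total RNA and a VAHTS Universal V6 kit to make libraries. Per the submitters' processing notes, mm10 and Bowtie2 were used, with no role given. The counting tool, annotation and strand setting were not given in the sources used here. FPKM removes gene length and library total but not shifts caused by a few abundant genes, so 2 rescalings were tried. Whole reads and library totals (30884067 to 40050267) were recovered from the values for 23548 of 23550 genes (relative tolerance 1e-09).

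Genes with FPKM of at least 1 in at least 3 libraries (11738) were tested on log2(FPKM + 1), which understates changes of low genes, with limma 3.58.1 (R 4.3.3), an intensity trend, no covariate, two-sided, with Benjamini-Hochberg adjustment over all tested genes at 0.05. The code was tested on simulated data. Members and lists were chosen with earlier results of these data known. All 31 members are named. Of each other list, up to 4 tested genes with the smallest p could be named, with Actg2, Myh11, Cpa3, Chga, Cela2a and Krt5 among the level checks, though not all are. Some of the named level checks are not reported here. Others (Gast, Ins1, Kitl) were named after their values were seen. Alternatives were upper-quartile or median-of-ratios scaling, 0.1 as the pseudocount, a robust prior, the filter set at 5 FPKM or dropped, a replicate block, leaving out each library, and voom on recovered reads. Promoters are RefSeq's on GRCm38.p6, positions GENCODE M21's. Figures used matplotlib 3.10.9 (Python 3.11.15).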

Additional observations from a re-analysis of the deposited data

How the results depend on the processing

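No member passed the adjusted threshold under any of the alternatives, where the lowest limma adjusted p was 0.400 (Cartpt without Riclin replicate 3). Over all genes 0 passed, 2 with a robust prior and 0 to 1 with a library left out (1 without saline replicate 2). Of the 19 tested members 13 kept their direction under every alternative, Gal, Cartpt, Kit and Gap43 among them. The median log2 fold change of the members, -0.07, was 0.042 with the filter at 5 FPKM, which leaves 8 members, 0.026 with the replicate block, and -0.073 to 0.056 with a library left out. It was lower with median-of-ratios scaling (-0.105), upper-quartile scaling (-0.096), voom (-0.080) and the pseudocount of 0.1 (-0.078). Without a filter it was -0.0063 over all 31 members, and with a robust prior -0.066. The number of members whose groups did not overlap, 4 of 19, was 2 of 8 at that filter. It was 4 to 7 of 19 with a library left out (7 without saline replicate 1 or Riclin replicate 2), where fewer libraries overlap more rarely by construction. The share over all tested genes, 11.2% in the main fit, was not taken for these alternatives. Their counts therefore have no background to be read against. With the replicate block 11 members were higher and 8 lower, and direction turned for Ano1 (0.015), Prph (0.026) and Scg2 (0.11). With a library left out, log2 fold changes crossed 0 for Ano1 (-0.13 to 0.060), Grp (-0.10 to 0.24), Prph (-0.25 to 0.0052), Scg2 (-0.21 to 0.056), Uchl1 (-0.012 to 0.28) and Vip (-0.35 to 0.0063), and the cause was not tested. The replicate block rests on numbers 2 and 4, which both groups share, and takes saline replicate 1 and Riclin replicate 3 out of the comparison. Deviations of same-numbered libraries correlated at 0.222 and 0.0109, and those of differently numbered ones at -0.438 to 0.391. Nothing in the labels says that the numbers pair animals. With this replicate block 0 members passed the adjusted threshold and 3 had an unadjusted limma p under 0.05, where 5.52% of all tested genes had one. Those were Cartpt, Kit and Npy (0.0118), while Gal had 0.0653. Depth limits Chat, Erbb4, Slc18a3, Elavl3 and Elavl4, with at most 52 reads in a library.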

Other observations

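Ratios within a library do not depend on its total, and 4 were taken after the values had been seen. Cartpt over Vip was 1.38, 1.60 and 1.33 with saline and 0.843, 1.23 and 0.939 with Riclin, in the same library order, without overlap. Gal over Vip was 0.443, 0.630 and 0.419 in saline and 0.427, 0.291 and 0.349 in Riclin, where Riclin replicate 2 lay above saline replicate 4. Kit over Ano1 was 0.953, 0.672 and 0.720 in saline and 0.930, 1.21 and 0.978 in Riclin, where saline replicate 1 lay above Riclin replicate 2. Cartpt over Gal was 3.12, 2.55 and 3.18 with saline and 1.98, 4.23 and 2.69 with Riclin, where Riclin replicate 3 held the highest value.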
